A study of Mus musculus with 17 samples.

Results

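The Wnt ligands, their receptors and their secreted antagonists were followed through the conversion of mouse spermatogonial stem and progenitor cells (SSCs) into multipotent adult spermatogonial-derived stem cells (MASCs). A gene was a member if its symbol was Wnt, Fzd, Sfrp or Dkk with a number, or Lrp5, Lrp6, Porcn or Wif1. This gave 41 genes of the 23891 gene symbols in the files, namely 19 ligands, 10 Frizzled receptors, 2 co-receptors, 9 antagonists (Sfrp1, Sfrp2, Sfrp4, Sfrp5, Dkk1 to Dkk4 and Wif1) and Porcn. Their 54 RefSeq transcripts were among 32661 in all, and each gene was given by its transcript with the highest mean FPKM over the 17 libraries. FPKM is the number of sequenced fragments per kilobase of transcript, scaled to the sequencing of the library, so levels can be set side by side between genes.

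RNA-seq covered 17 libraries, namely 4 SSC lines, 6 MASC lines, 2 embryonic stem cell (ESC) lines, 2 induced pluripotent stem (iPS) cell lines, 2 cultures of Lin- haematopoietic stem and progenitor cells (HSCs) and 1 sample of embryonic fibroblasts (MEF). A number after the cell type names a line, as in SSC.1. SSCs came from adult testes of Oct4-GFP (SSC.1 and SSC.2), C57Bl/6J (SSC.3) and 129mix (SSC.4) mice, were expanded on fibroblast feeder cells and were separated from them by brief plating on gelatin. MASCs arose in long-term SSC culture without added factors, were picked as colonies and carried the Oct4-GFP (MASC.1 and MASC.2), 129mix (MASC.3 and MASC.4) or Gt(ROSA26)Sor-lacZ (MASC.5 and MASC.6) background. ESC.1 was Oct4-GFP and ESC.2 was 129mix. Both iPS lines were 129mix, made with 2 µg/ml doxycycline from E13.5 fibroblasts of tetO-4F2A x H3.3B-HA embryos. The MEF sample was also 129mix and came from E13.5 H3.3B-HA embryos. MASCs, ESCs and iPS cells also grew on fibroblast feeders, whereas HSCs, from C57Bl/6J marrow, grew on E4ORF1-HUVEC endothelial feeders. The SSC medium held glial cell-derived neurotrophic factor, basic fibroblast growth factor and epidermal growth factor. MASCs, ESCs and iPS cells were kept in ESC medium with serum replacement and leukaemia inhibitory factor, and HSCs in serum-free medium with Kit ligand. Differences of these groups from SSC lines therefore cannot be told apart from those of the media. No source used here names the SSC line behind each MASC line, and none says that the HSC cultures came from separate animals, so p-values measure the spread between these libraries. Between 13532 and 16272 transcripts per library reached 1 FPKM, and 1 FPKM stood for 1.26 to 3.23 reads per base. The files hold no counts, and the counting error of a single value was not estimated. Values near 0 rest on little coverage, such as 0.0387 reads per base for Wnt8a in SSC.3.

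Wnt proteins are secreted lipid-bearing signals. Porcn, an acyltransferase of the endoplasmic reticulum, adds their lipid, Wls carries them to the cell surface, and they bind Frizzled receptors, which act with Lrp5 or Lrp6 to stabilize beta-catenin or act without them in other branches. Secreted frizzled-related proteins (Sfrp) and Wif1 bind the ligands, and Dickkopf proteins other than the divergent Dkk3 bind Lrp5 and Lrp6. The pathway is known for a part in the self-renewal and differentiation of ESCs, and for effects on the proliferation of cultured spermatogonia.

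The labels were checked against marker genes. The summed level of 8 spermatogonial markers was 485 to 709 FPKM in SSC lines and 93.4 to 161 FPKM in MASC lines. Most of the MASC sum was Etv5, which was at 81.05 to 127.8 FPKM in MASC lines. It was at 17.2, 123, 45.0 and 11.4 FPKM in SSC.1 to SSC.4, and so did not fall with the sum. The summed level of 6 pluripotency markers was 7.35 to 113 FPKM in SSC lines and 1280 to 1634 FPKM in MASC lines. Of these, Pou5f1 (Oct4) stood at 94.5 FPKM in SSC.1 and at 1.37 to 5.42 FPKM in the other SSC lines. The sum over 6 blood markers was 1437 to 1945 FPKM in HSC cultures and at most 63.1 FPKM elsewhere. Fibroblast markers were uneven within groups: the sum over 9 of them was 9.69 to 754 FPKM in SSC lines, 18.6 to 894 FPKM in MASC lines and 6068 FPKM in MEF, none was under 1 FPKM in every SSC or every MASC line, and none of the 9 separated all MASC from all SSC lines in either direction. Besides MEF, 5 libraries (SSC.1, SSC.3, MASC.1, ESC.1 and HSC.2) had over 100 FPKM of Col1a2, a collagen gene of fibroblasts, and counts of members were therefore also made without them. Of 8 testis somatic markers, Wt1 was lower in every MASC line (8.17 to 20.9 FPKM in SSC lines and 0.797 to 4.41 FPKM in MASC lines) and Cyp11a1 was higher (0.0225 to 0.264 and 0.590 to 2.07 FPKM), and the other 6 overlapped. Amh, Cyp11a1 and Hsd3b1 were under 1 FPKM in all 4 SSC lines. Wt1, Sox9 (1.75, 12.4, 3.23 and 9.56 FPKM in SSC.1 to SSC.4) and Star (1.05 to 3.04 FPKM) were above it in all 4. Myh11 and Inhba were on both sides of 1 FPKM. The summed level of this list was 22.9 to 27.3 FPKM in SSC lines and 6.92 to 24.2 FPKM in MASC lines. In bulk RNA, fewer cells of a type and less RNA per cell cannot be told apart.

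**Figure D1:**
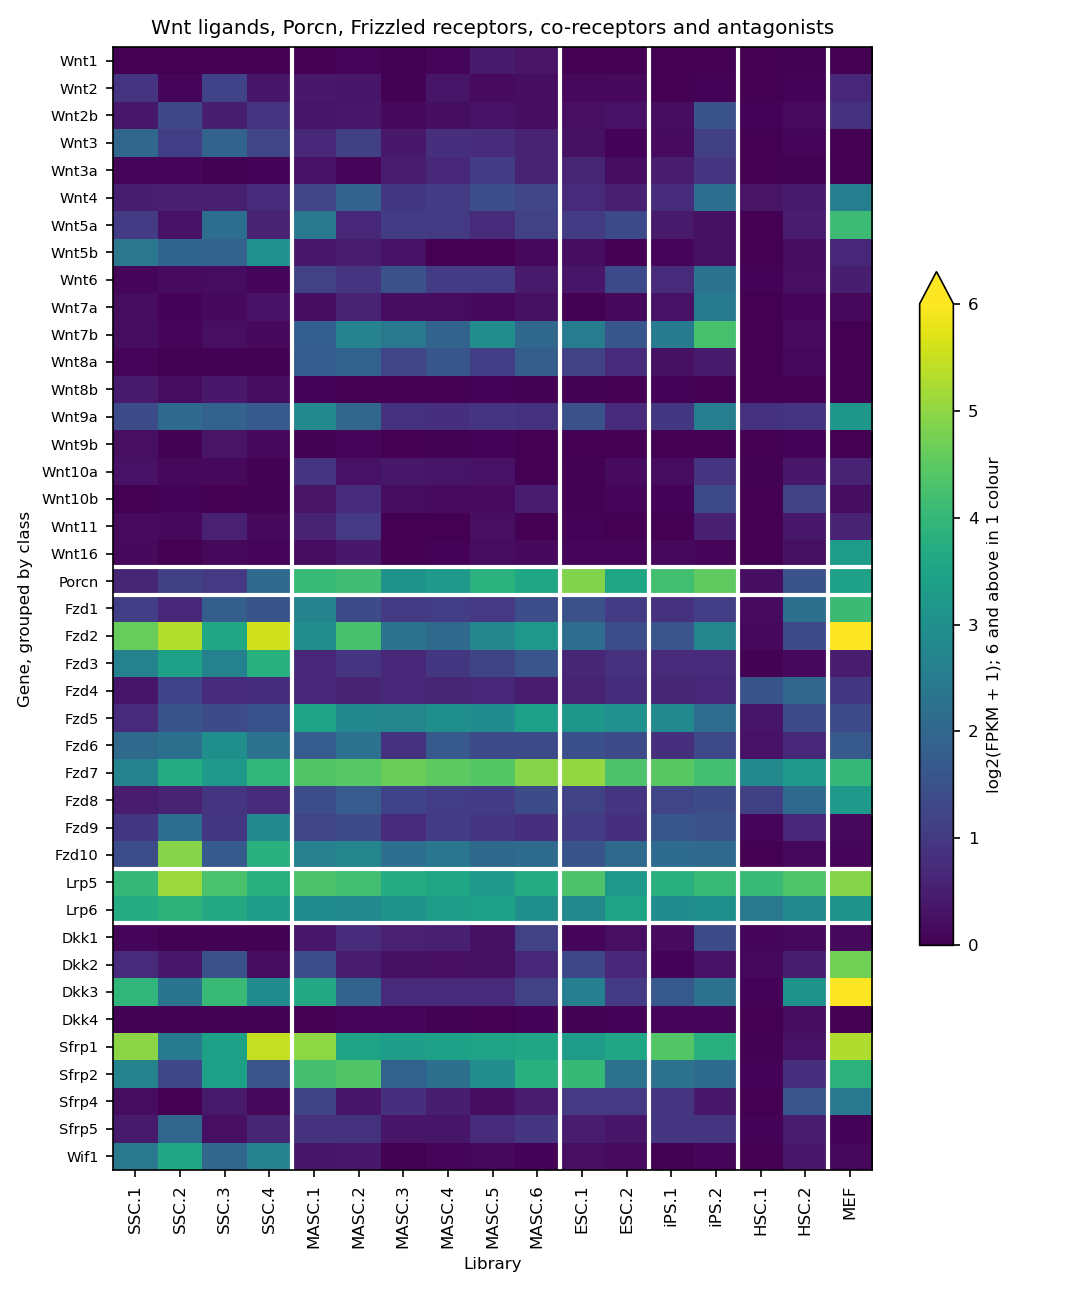
Level of the 41 genes (rows, grouped as ligands, Porcn, Frizzled receptors, co-receptors and antagonists) in the 17 libraries (columns, grouped by cell type), as log2(FPKM + 1) in colour. Most ligand rows are dark in every library, Lrp5, Lrp6 and Fzd7 are bright in all 17, and Wnt5b, Wif1 and Fzd3 are brighter in the SSC columns than in the MASC, ESC and iPS columns.

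Most of these genes were expressed at low level. Only Fzd7, Lrp5 and Lrp6 reached 1 FPKM in all 17 libraries, and Wnt1, Wnt8b, Wnt9b, Wnt10a, Wnt11 and Dkk4 reached it in none. Summed over its 4 transcripts, Wnt11 did so in MASC.1, MASC.2 and iPS.2 (1.011, 2.42 and 1.07 FPKM). Sums over a class of genes count 1 transcript per gene. The 19 ligands together summed to 10.1 to 15.5 FPKM in SSC lines and 11.2 to 21.7 FPKM in MASC lines, which overlapped. The Frizzled receptors summed to 40.5 to 102 FPKM in SSC lines and 42.3 to 61.0 FPKM in MASC lines, and the antagonists to 24.2 to 57.4 FPKM and 14.4 to 64.3 FPKM. HSC cultures had the lowest sums, with 1.25 to 4.60 FPKM for ligands and 10.1 to 22.4 FPKM for Frizzled receptors, and MEF held 41.9 FPKM of ligands, 111 FPKM of Frizzled receptors and 144 FPKM of antagonists.

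The first comparison asked which Wnt components differed between SSC lines and the MASC lines derived from such cells. Porcn, the ligands Wnt7b and Wnt8a, and the receptors Fzd5 and Fzd7 were higher in MASC lines, whereas the ligand Wnt5b, the antagonist Wif1, and the receptors Fzd2 and Fzd3 were lower. A gene was called different if its limma p-value, adjusted by Benjamini-Hochberg over all 32661 transcripts, was under 0.05 and its mean log2(FPKM + 1) differed by at least 1. By this rule 5 members were higher, 4 were lower and 32 were not called, against 6.04% of all transcripts higher and 9.6% lower. The median difference was 0.014 over the members and -0.0048 over all transcripts. The lines did not overlap in 16 members, with MASC lines above in 11 and below in 5, where 9.91% and 15.4% of all transcripts were so separated. Leaving out the 5 libraries of high Col1a2 kept 5 MASC lines and only 2 SSC lines, SSC.2 and SSC.4. In that fit 4 members were higher and 7 lower, and these included all of the called genes except Fzd7.

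**Figure D2:**
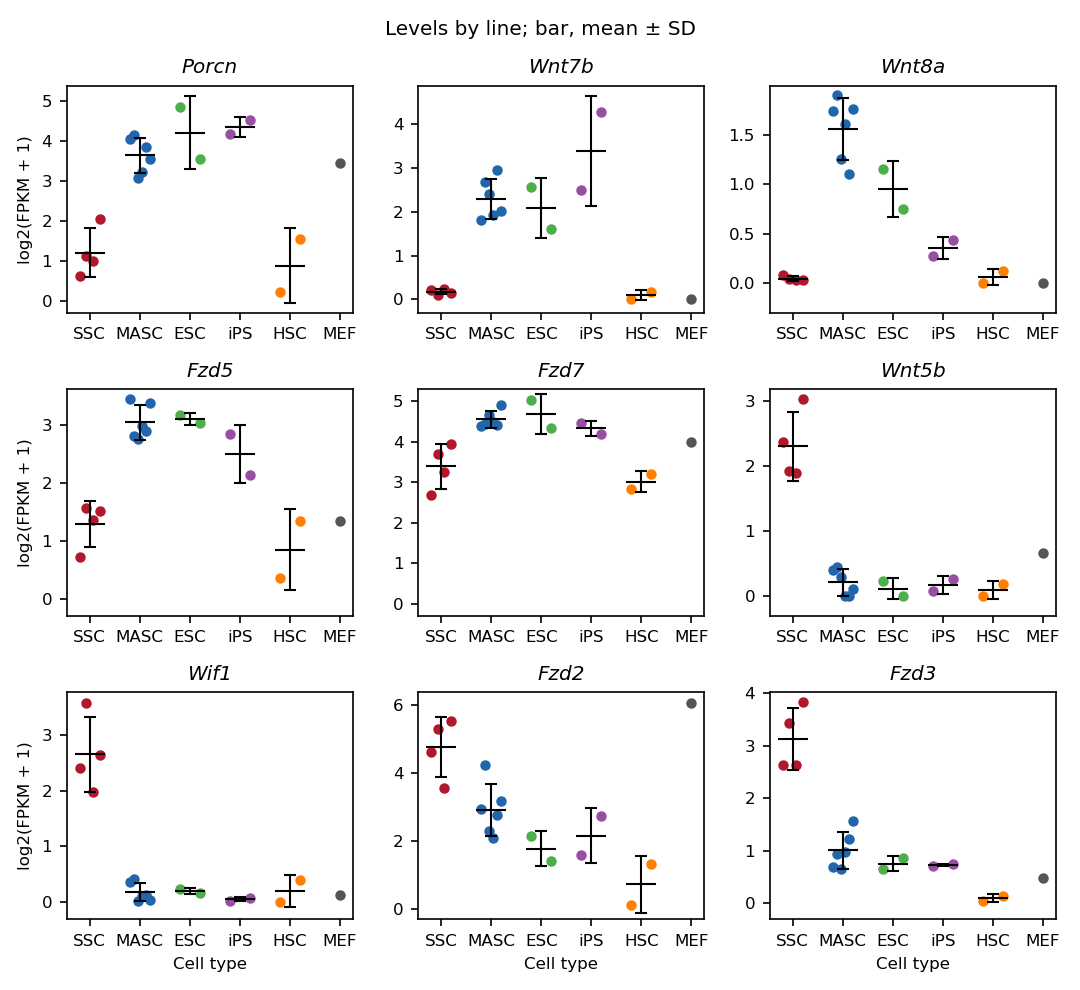
Level of the 9 members called between MASC and SSC lines in each library, as log2(FPKM + 1), by cell type. Points are lines or cultures, and bars give the mean ± SD where there is more than 1 library. SSC and MASC points do not overlap in any panel except Fzd2, where MASC.2 lies above SSC.3.

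The sequence ahead of the start site is shown for 2 members that fell and 2 that rose. These 4 are the called members that were found in the reference table, and the other 5 (Porcn, Wnt7b, Wnt8a, Fzd2 and Fzd3) were not. The 250 bases upstream are from RefSeq on GRCm38.p6, which is a later build than the mm9 of the expression files, and capitals mark CpG dinucleotides. For Wnt5b, which has several starts, the most distal is given, since the distances between its starts on GRCm38.p6 (17825 and 77136 bases) equal those between its transcripts in the files.
Wnt5b, chr6:119544348-119544597, minus strand: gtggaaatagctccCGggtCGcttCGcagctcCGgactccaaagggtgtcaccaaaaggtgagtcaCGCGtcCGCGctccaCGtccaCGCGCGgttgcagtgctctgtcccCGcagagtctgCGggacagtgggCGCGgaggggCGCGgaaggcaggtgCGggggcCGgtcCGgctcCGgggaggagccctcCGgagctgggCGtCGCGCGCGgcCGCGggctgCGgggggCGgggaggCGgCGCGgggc
Wif1, chr10:121033754-121034003, plus strand: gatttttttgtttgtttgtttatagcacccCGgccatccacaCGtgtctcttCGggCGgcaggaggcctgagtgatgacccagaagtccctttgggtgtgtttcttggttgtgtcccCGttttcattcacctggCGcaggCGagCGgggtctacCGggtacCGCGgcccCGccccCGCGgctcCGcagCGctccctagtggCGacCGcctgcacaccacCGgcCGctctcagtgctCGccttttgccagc
Fzd5, chr1:64737751-64738000, minus strand: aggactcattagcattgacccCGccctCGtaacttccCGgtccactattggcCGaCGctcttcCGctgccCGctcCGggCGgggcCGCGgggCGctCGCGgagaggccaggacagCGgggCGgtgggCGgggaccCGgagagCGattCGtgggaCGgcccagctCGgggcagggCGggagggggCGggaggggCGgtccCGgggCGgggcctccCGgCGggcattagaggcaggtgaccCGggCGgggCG
Fzd7, chr1:59481897-59482146, plus strand: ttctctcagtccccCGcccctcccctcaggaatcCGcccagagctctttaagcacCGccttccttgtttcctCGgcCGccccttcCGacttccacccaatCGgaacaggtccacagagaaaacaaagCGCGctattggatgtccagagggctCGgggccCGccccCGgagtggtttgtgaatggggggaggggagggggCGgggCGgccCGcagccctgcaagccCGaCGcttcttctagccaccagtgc
The Wnt5b and Fzd5 stretches held 35 and 32 CpG, those of Wif1 and Fzd7 held 21 and 17. The other Wnt5b starts held 7 and 4 CpG. Promoters of 26 of the 41 members were in the reference table, 29 stretches in all, with a median of 22 CpG (range 4 to 48) against 6 over all 32851 promoters of this length. Both strands were searched for the TCF/LEF motifs CTTTGAT and CTTTGAA and the octamer ATGCAAAT. CTTTGAT occurred in 2 of the 29 stretches, those of Wnt11 and of another Wnt5b start (3.21% of all promoters), CTTTGAA in 1, that of Dkk1 (4.46%), and ATGCAAAT in 1, that of Sfrp2 (1.6%). None lay in the 4 sequences shown.

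Among the ligands, Wnt7b and Wnt8a rose in MASC lines and Wnt5b fell. Gene positions given from here on are those of the transcripts on mm9. Wnt7b, a ligand mostly linked to beta-catenin signalling (NM_009528, chr15:85365867-85412251), was at 0.165, 0.0720, 0.180 and 0.114 FPKM in SSC.1 to SSC.4, and its lowest, median and highest values in the 6 MASC lines were 2.48, 3.66 and 6.66 FPKM. No MASC line came near the SSC range, and the log2 difference was 2.11 (SE 0.26, adjusted p = 0.0002). Wnt8a, known from early embryonic patterning, stood at 0.0552, 0.0268, 0.0197 and 0.0180 FPKM in the SSC lines and at 1.14, 2.20 and 2.73 FPKM (lowest, median, highest) in MASC lines. Wnt8a was thus barely measured in any SSC line, and its log2 difference was 1.52 (SE 0.16, adjusted p = 8.3e-05). Wnt5b, a ligand mostly linked to branches without beta-catenin (NM_009525, chr6:119382549-119494365), was at 4.19, 2.80, 2.70 and 7.14 FPKM in SSC lines and at 3.66e-16, 0.160 and 0.372 FPKM (lowest, median, highest) in MASC lines. The lowest value is in effect 0. The groups were apart, with a log2 difference of -2.09 (SE 0.22, adjusted p = 7.6e-05), and MEF held 0.583 FPKM. Summed over its 3 transcripts, Wnt5b was at 7.68, 5.61, 6.35 and 8.61 FPKM in SSC lines and 0.535 to 1.004 FPKM in MASC lines.

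Wnt4, a ligand of female gonad and kidney development that is described here because the study names it, was at 0.407, 0.442, 0.444 and 0.649 FPKM in SSC lines and 0.956, 1.39 and 2.70 FPKM (lowest, median, highest) in MASC lines. It was higher in every MASC line, but its log2 difference of 0.74 (SE 0.16, adjusted p = 0.0064) stayed under the minimum of 1. With a pseudocount of 0.1 in place of 1, which weighs low values more, the difference was 1.42 and Wnt4 was called. The same held for Wnt6 (0.88 with a pseudocount of 1), Wnt10b (0.32), Wnt3 (-0.83), Wnt2b (-0.51) and Wnt8b (-0.29), whose adjusted p was under 0.05 at either pseudocount, so that their calls depend on how low values are weighed. Wnt3, needed for formation of the primitive streak, was at 2.96, 1.17, 2.74 and 1.39 FPKM in SSC lines and 0.334, 0.656 and 1.21 FPKM in MASC lines (lowest, median, highest), so that MASC.2 overlapped SSC.2. Wnt3a was called higher with the pseudocount of 0.1 as well, and its difference of 0.46 (SE 0.16, adjusted p = 0.06) with a pseudocount of 1 was not. The other 9 ligands (Wnt1, Wnt2, Wnt5a, Wnt7a, Wnt9a, Wnt9b, Wnt10a, Wnt11 and Wnt16) differed by -0.38 to 0.23 and were not called under either pseudocount.

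The make-up of the ligand pool differed accordingly. Wnt5b held 32.2% ± 14.1 (SD, n = 4) of the summed ligand FPKM in SSC lines and 0.999% ± 0.877 (SD, n = 6) in MASC lines. Wnt7b held 0.993% ± 0.270 and 27.8% ± 10.7 in these groups, and Wnt8a 0.237% ± 0.142 and 13.7% ± 4.94. Wnt9a held 19.2% ± 8.10 and 11.6% ± 8.90. Its MASC share was uneven, with 28.6% in MASC.1 and 14.6% in MASC.2, while its level in MASC.3 to MASC.6 was only 0.774 to 0.865 FPKM. These shares count 1 transcript per gene, describe the same values and were not tested.

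**Figure D3:**
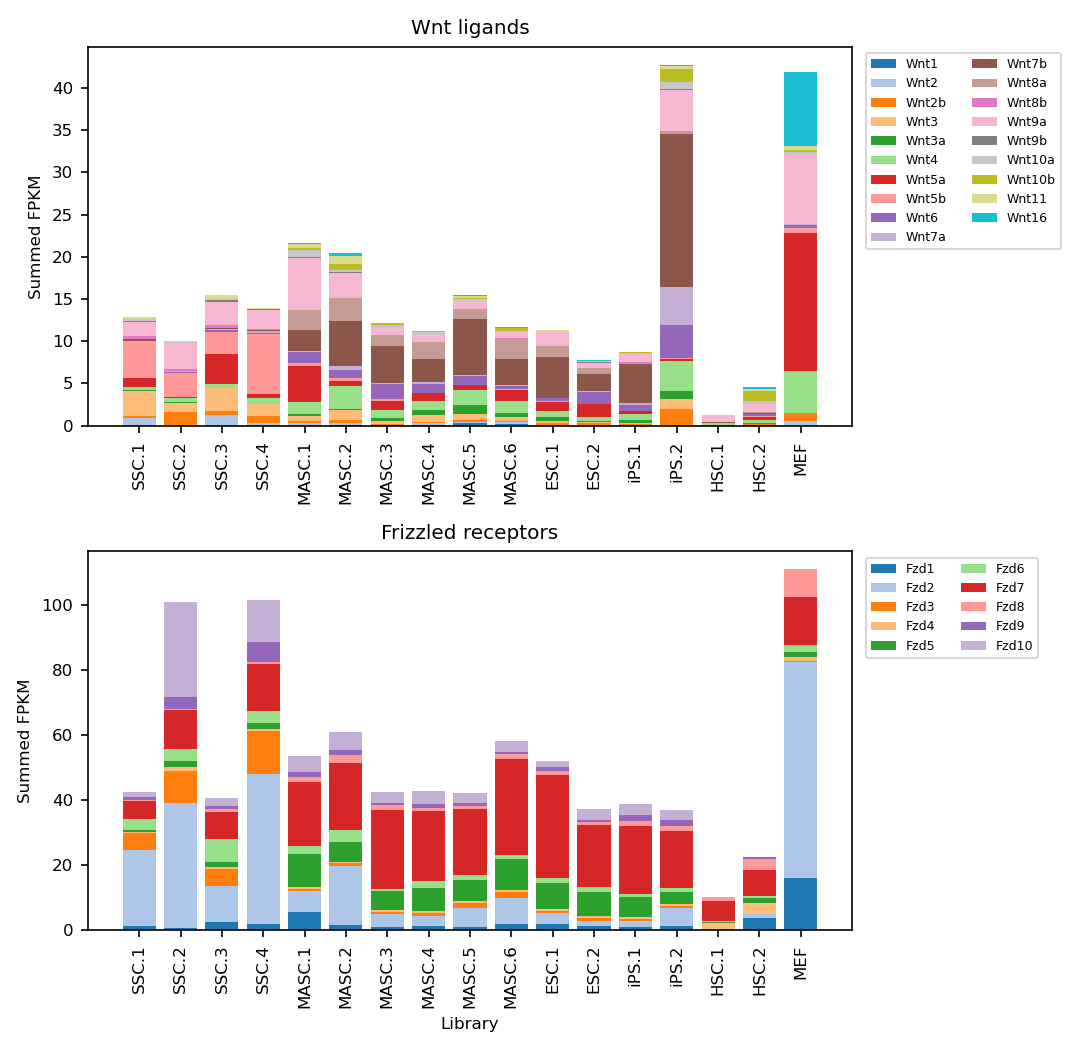
Summed FPKM of the Wnt ligands (upper panel) and of the Frizzled receptors (lower panel) in each library, stacked by gene, with libraries along the horizontal axis. Fzd2 makes up the largest block of the Frizzled sum in each SSC library and in MEF, and Fzd7 in each MASC, ESC, iPS and HSC library, and the tallest ligand bars are those of iPS.2 and MEF.

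Porcn (NM_016913, chrX:7770976-7783651) rose in MASC lines. It was at 0.548, 1.18, 0.982 and 3.17 FPKM in SSC.1 to SSC.4, and at 7.39, 12.02 and 16.9 FPKM (lowest, median, highest) in MASC lines. SSC.4 was the highest SSC line and still lay below every MASC line, and the log2 difference was 2.45 (SE 0.36, adjusted p = 0.00064). Porcn has 4 transcripts in the files, and their sum was 3.14, 7.58, 2.46 and 4.46 FPKM in the SSC lines and 9.55 to 19.6 FPKM in MASC lines. On this scale Porcn had the largest difference of the members that rose, but with a pseudocount of 0.1 it (3.14) was below Wnt7b (4.11) and Wnt8a (3.97). The difference of the sums over transcripts was 1.60 (adjusted p = 0.0048), below that of Wnt7b (2.22) and Fzd5 (2.02), so that part of the difference lay in which transcript the reads were assigned to. Within the Oct4-GFP background the difference in Porcn was 3.22 (2 lines each), and within 129mix it was 1.08 (2 MASC lines and 1 SSC line). The test of that difference between backgrounds gave an adjusted p of 0.11, with a raw p of 0.0017.

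Of the 10 Frizzled receptors, Fzd5 and Fzd7 rose in MASC lines and Fzd2 and Fzd3 fell. Fzd5 (NM_022721, chr1:64777132-64784324), a receptor known from eye and gut development, was at 0.642, 1.96, 1.58 and 1.86 FPKM in SSC lines and 5.78, 6.71 and 10.01 FPKM (lowest, median, highest) in MASC lines, a log2 difference of 1.76 (SE 0.20, adjusted p = 0.00014). Fzd7 (NM_008057, chr1:59538991-59543799), known as an abundant Frizzled of pluripotent cells, was at 5.47, 11.9, 8.45 and 14.5 FPKM and at 19.8, 21.0 and 29.3 FPKM. All MASC lines were above all SSC lines for both receptors. The difference in Fzd7 was 1.16 (SE 0.24, adjusted p = 0.0054), but it was 0.92 without SSC.1, the lowest SSC line, and 0.76 without the 5 libraries of high Col1a2, and therefore no longer reached 1 in either case.

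Fzd2 (NM_020510, chr11:102465745-102469372) was the most abundant Frizzled of every SSC line, at 23.5, 38.4, 10.9 and 46.0 FPKM in SSC.1 to SSC.4, and was at 3.22, 6.28 and 18.0 FPKM (lowest, median, highest) in MASC lines. MASC.2 was above SSC.3, so the groups overlapped. The log2 difference was -1.84 (SE 0.49, adjusted p = 0.018). The call was lost without SSC.2 (adjusted p = 0.0505) or without SSC.4 (adjusted p = 0.0551), and MEF held 66.4 FPKM. SSC.2, with the lowest fibroblast markers of the SSC lines, had the second-highest Fzd2 among them. Leaving out the 5 libraries of high Col1a2 kept SSC.2 and SSC.4, the 2 SSC lines with the most Fzd2, and the difference was then -2.51. The part of the fibroblast markers in these values was not tested. Fzd3 (NM_021458, chr14:65811278-65881300), a receptor of axon guidance and planar cell polarity, was at 5.21, 9.78, 5.22 and 13.1 FPKM in SSC lines and 0.577, 0.929 and 1.98 FPKM in MASC lines. No lines overlapped, MEF held 0.402 FPKM, and the difference was -2.12 (SE 0.27, adjusted p = 0.00028).

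The other 6 Frizzled receptors were not called. Fzd10 ranged most widely among SSC lines, at 1.67, 29.2, 2.27 and 12.9 FPKM in SSC.1 to SSC.4, while MASC lines were at 3.08, 3.87 and 5.62 FPKM (lowest, median, highest). SSC.2 and SSC.4 lay above and SSC.1 and SSC.3 below all MASC lines, and the difference was -0.62 (SE 0.63, adjusted p = 0.53). Fzd9 had a similar spread, at 0.952, 3.48, 0.953 and 6.11 FPKM in SSC lines. SSC.1 and SSC.3 are the SSC libraries with over 100 FPKM of Col1a2, and without the 5 libraries of high Col1a2 Fzd10 and Fzd9 were called lower, with differences of -2.07 (adjusted p = 0.0097) and -1.51 (adjusted p = 0.0098). MEF held 0.0730 FPKM of Fzd10 and 0.0946 FPKM of Fzd9, and the part of the fibroblast markers in this result was not tested. The differences of Fzd8 (0.64, SE 0.14, adjusted p = 0.0071) and Fzd6 (-0.83, SE 0.27, adjusted p = 0.038) were under the minimum of 1, and both were called with a pseudocount of 0.1. Fzd1 differed by 0.13 and Fzd4 by -0.15, with adjusted p of 0.87 and 0.49.

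As a share of the summed Frizzled FPKM, Fzd2 held 41.5% ± 11.95 (SD, n = 4) in SSC lines and 14.4% ± 7.82 (SD, n = 6) in MASC lines. Fzd7 held 14.95% ± 4.09 and 46.1% ± 8.92, and no MASC line (33.7% to 57.1%) had as low a Fzd7 share as any SSC line (11.8% to 20.9%). Fzd5 went from 2.29% ± 1.08 in SSC lines to 14.99% ± 3.01 in MASC lines, and Fzd3 from 11.9% ± 1.53 to 2.13% ± 0.975. The shares leave out the other transcript of Fzd5. Summed over both, Fzd5 was at 0.675 to 3.76 FPKM in SSC lines and 10.3 to 13.7 FPKM in MASC lines. The leading Frizzled transcript was thus Fzd2 in all 4 SSC lines and Fzd7 in all 6 MASC lines.

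The co-receptors were not called. Lrp5 was at 15.1, 33.2, 18.3 and 12.8 FPKM in SSC lines and 8.50, 12.1 and 19.1 FPKM (lowest, median, highest) in MASC lines, which overlapped, with a difference of -0.50 (SE 0.33, adjusted p = 0.3). Lrp6 was at 11.9, 13.7, 11.3 and 9.28 FPKM and 6.18, 7.15 and 9.65 FPKM. MASC.4 and MASC.5 reached the level of SSC.4, and the difference of -0.54 (SE 0.17, adjusted p = 0.035) was under 1.

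Among the antagonists only Wif1 was called. Wif1 (NM_011915, chr10:120471060-120537698), a secreted protein that binds Wnt ligands, was at 4.28, 10.9, 2.93 and 5.22 FPKM in SSC.1 to SSC.4, and at 0.0203, 0.0898 and 0.336 FPKM (lowest, median, highest) in MASC lines. The lowest SSC line was above every MASC line, and the difference of -2.46 (SE 0.26, adjusted p = 7.9e-05) was the largest fall of the members on this scale. SSC.2 had the highest Wif1 and the lowest fibroblast markers of the SSC lines, and MEF held 0.0983 FPKM of Wif1. Of the testis somatic markers, Sox9 was at 1.75, 12.4, 3.23 and 9.56 FPKM in SSC.1 to SSC.4. Wt1 was at 20.9, 8.17, 14.3 and 13.3 FPKM in the same lines. The part of testis somatic cells in the Wif1 values was not tested. Leaving out the 5 libraries of high Col1a2 kept SSC.2 and SSC.4, the 2 SSC lines with the most Wif1, and the difference was then -2.96 (adjusted p = 0.0013). The part of the fibroblast markers in these values was not tested. Within the Oct4-GFP and 129mix backgrounds the difference in Wif1 was -2.60 and -2.57.

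Dkk3 was at 14.5, 3.96, 15.6 and 6.40 FPKM in SSC lines, 0.643, 0.973 and 11.4 FPKM (lowest, median, highest) in MASC lines and 62.8 FPKM in MEF. Its high MASC value was that of MASC.1, which also had the highest Col1a2 of the MASC lines (327 FPKM). The part of the fibroblast markers in that value was not tested. The difference of -1.82 (SE 0.66, adjusted p = 0.064) was not called, but it was -2.24 (adjusted p = 0.008) without MASC.1. Sfrp1 was the most abundant antagonist of every MASC line but MASC.2 and MASC.6, which had more Sfrp2. Its values of 30.1, 4.57, 9.64 and 42.9 FPKM in SSC lines spanned those of all MASC lines (9.35, 10.1 and 30.7 FPKM for the lowest, median and highest), a difference of -0.37 (SE 0.58, adjusted p = 0.72). Sfrp2 was at 5.41, 1.43, 9.45 and 1.99 FPKM in SSC lines and 2.63, 9.87 and 19.6 FPKM in MASC lines, with a difference of 1.004 (SE 0.66, adjusted p = 0.31). Dkk1, at no more than 0.0595 FPKM in SSC lines, was at 0.214, 0.451 and 1.25 FPKM in MASC lines, a difference of 0.57 (SE 0.15, adjusted p = 0.018) that was called only with the pseudocount of 0.1. Dkk2, Dkk4, Sfrp4 and Sfrp5 differed by -0.14 to 0.41 and were not called.

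**Figure D4:**
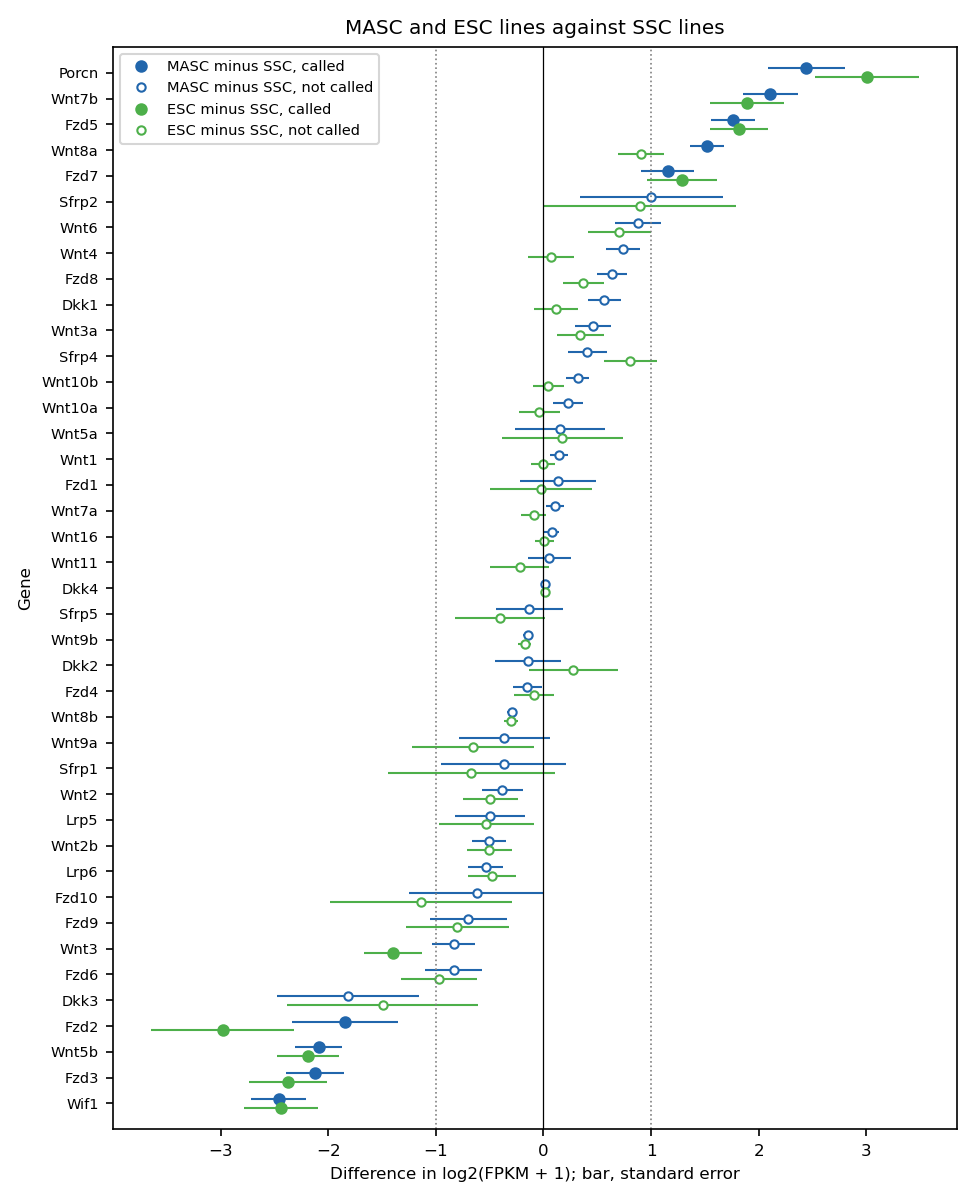
Difference in mean log2(FPKM + 1) of MASC lines (blue) and ESC lines (green) from SSC lines for the 41 members, sorted by the MASC difference, with standard errors as bars. Filled points were called, and dotted lines mark a difference of 1 in either direction. MASC differences run from -2.46 (Wif1) to 2.45 (Porcn), and both sets share the SSC lines as their reference.

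Strain differed between the groups, since 1 SSC line was C57Bl/6J and 2 MASC lines were Gt(ROSA26)Sor-lacZ, and neither background was present in the other group. Of the 9 called members, all had the same direction within Oct4-GFP and within 129mix. For all but Fzd2 this was fixed in advance, since no MASC line overlapped an SSC line. It is thus no separate support for those calls. The smallest within-background values were those of Fzd7 in 129mix (0.62) and Porcn in 129mix, and the largest was Fzd2 in 129mix (-3.37, against -1.36 in Oct4-GFP). No member passed a limma test of the difference between these backgrounds (lowest adjusted p = 0.11, with 4 members at a raw p under 0.05). The test rests on few lines, with 1 SSC line in 129mix, and does not show that the backgrounds are alike. Fzd2 had a gap of 2.01 (SE 0.81) at a raw limma p of 0.061. With strain as a block, Fzd7 was no longer called (1.02, adjusted p = 0.07).

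The ESC lines show where MASCs stood relative to embryo-derived cells. Against the same SSC lines, 4 members were higher in ESC lines and 5 lower, where 4.96% of all transcripts were higher and 8.75% lower. Porcn was at 28.0 and 10.8 FPKM in ESC.1 and ESC.2, a log2 difference from SSC lines of 3.01 (SE 0.48, adjusted p = 0.0019), and at 17.2 and 22.2 FPKM in the iPS lines. Wnt7b was at 4.87 and 2.02 FPKM, a difference of 1.90 (SE 0.34, adjusted p = 0.0036). Both genes were higher in ESC.1 than in ESC.2. Fzd5 was at 8.07 and 7.24 FPKM, a difference of 1.82 (SE 0.27, adjusted p = 0.0012). Fzd7 was at 31.6 and 19.2 FPKM, a difference of 1.29 (SE 0.33, adjusted p = 0.02). For these 4 genes both ESC values were above those of all 4 SSC lines. Wnt8a was also above all SSC lines, but its difference of 0.91 (SE 0.21, adjusted p = 0.014) was under the minimum of 1.

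Of the members lower in ESC lines, Fzd2 was at 3.40 and 1.68 FPKM in ESC.1 and ESC.2, with a difference of -2.98 (SE 0.66, adjusted p = 0.01) from SSC lines. Fzd3 was at 0.572 and 0.815 FPKM, with a difference of -2.37 (SE 0.36, adjusted p = 0.0014). Both receptors were below all SSC lines. Wif1 was at 0.182 and 0.124 FPKM (-2.44, SE 0.34, adjusted p = 0.00093). Wnt5b was at 0.172 and 2.90e-16 FPKM (-2.19, SE 0.29, adjusted p = 0.00065), the latter in effect 0. Wnt3 was at 0.210 and 0.0394 FPKM (-1.40, SE 0.27, adjusted p = 0.0048), so that unlike in MASC lines no ESC line reached an SSC line. Fzd7 was not called without ESC.1 (0.94) or with strain as a block (1.21, adjusted p = 0.081), and Fzd2 and Wnt3 were not called without ESC.2 (adjusted p = 0.096 and 0.0509). Without the libraries of high Col1a2, which left 1 ESC and 2 SSC lines, 1 member (Fzd5) was higher and 6 were lower.

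ESC and MASC lines were also compared directly. No member was called in either direction by limma, where 0.0153% of all transcripts were called higher in ESC lines and 0.00306% lower, and 3 members had an unadjusted p under 0.05. Wnt8a was at 1.23 and 0.680 FPKM in ESC lines, of which ESC.2 lay below all MASC lines, with a difference from MASC lines of -0.61 (SE 0.20, adjusted p = 1) and an unadjusted p of 0.014 by limma. Wnt4 was at 0.670 and 0.451 FPKM, both below all MASC lines, with a difference of -0.67 (SE 0.20, adjusted p = 1) and an unadjusted p of 0.0088 by limma. Its difference from SSC lines was 0.071. Neither gene passed after adjustment, which does not show that the cell types are alike in them.

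The iPS cell lines, reached from fibroblasts by induced factors, were compared with MASC lines in a fit over all 17 libraries. Wnt8a was lower in iPS cells, at 0.211 and 0.351 FPKM in iPS.1 and iPS.2, with a log2 difference from MASC lines of -1.21 (SE 0.19, adjusted p = 0.0086). It was the 1 member called lower (0.343% of all transcripts), and none was called higher (0.361%), although 3 members had an unadjusted p under 0.05. The Wnt8a call was lost without iPS.1 (adjusted p = 0.099), without iPS.2 (adjusted p = 0.059) and without the libraries of high Col1a2 (adjusted p = 0.0526). Without iPS.1, Wnt7a was called higher in the remaining iPS line. The iPS lines were unlike each other in several ligands. Wnt7b was at 4.61 and 18.1 FPKM in iPS.1 and iPS.2, Wnt7a at 0.218 and 4.44 FPKM, Wnt6 at 0.630 and 3.90 FPKM, Wnt4 at 0.708 and 3.54 FPKM and Wnt9a at 0.963 and 4.92 FPKM. iPS.2 was higher in each case and had the highest Wnt7b, Wnt7a and Wnt6 of the 17 libraries, and its summed ligands were 42.7 FPKM against 8.76 FPKM in iPS.1. Frizzled receptors did not show this, with sums of 38.8 and 36.9 FPKM.

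HSCs are an adult stem and progenitor type of another tissue. Compared with SSC lines, 10 members were lower, 1 was higher and 30 were not called, where 14.2% of all transcripts were lower and 8.75% higher. Fzd2 was at 0.0892 and 1.51 FPKM in HSC.1 and HSC.2, a log2 difference of -4.04 (SE 0.67, adjusted p = 0.00055). Fzd3 was at 0.0279 and 0.106 FPKM, a difference of -3.04 (SE 0.33, adjusted p = 2.2e-05). Sfrp1, which SSC lines held at 4.57 FPKM or more, was at 0.0271 and 0.234 FPKM, a difference of -3.91 (SE 0.72, adjusted p = 0.0011). With strain as a block the Sfrp1 call was lost (-3.24, adjusted p = 0.066). Both HSC cultures lay below all SSC lines for each of these genes. Wif1 was at 0 and 0.321 FPKM (-2.45, SE 0.32, adjusted p = 9.6e-05) and Wnt5b at 8.59e-11 and 0.145 FPKM (-2.21, SE 0.27, adjusted p = 5.3e-05). The SSC lines are those of the preceding comparisons, so the falls of Fzd2, Fzd3, Wif1, Wnt5b and Wnt3 share their reference.

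Wnt3 was at 0 and 0.0529 FPKM in the HSC cultures (-1.53, SE 0.30, adjusted p = 0.0017). Fzd6, a receptor of planar cell polarity, was at 0.221 and 0.608 FPKM (-1.89, SE 0.34, adjusted p = 0.001). Both genes were below all SSC lines. Fzd10 was at 0 and 0.0985 FPKM (-2.89, SE 0.76, adjusted p = 0.011), Fzd9 at 0.0641 and 0.606 FPKM (-1.34, SE 0.45, adjusted p = 0.037) and Lrp6 at 4.28 and 6.30 FPKM (-1.004, SE 0.22, adjusted p = 0.0038). Again no HSC culture reached an SSC line. Both HSC cultures were C57Bl/6J, as was only SSC.3, and with strain as a block Fzd10 (-1.64, adjusted p = 0.35), Fzd9 (-0.58, adjusted p = 0.62) and Lrp6 (-0.98, adjusted p = 0.066) were not called, whereas Dkk2, Sfrp2, Wnt2 and Wnt5a were called lower. Porcn, at 0.164 and 1.90 FPKM, overlapped the SSC lines and was not called (-0.32, SE 0.50, adjusted p = 0.72). Lrp5, at 15.5 and 19.4 FPKM, stayed within the SSC range.

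Fzd4, a receptor known from retinal vessels, was the 1 member called higher in HSCs, at 1.96 and 2.97 FPKM against 0.271, 1.32, 0.671 and 0.713 FPKM in SSC lines (1.007, SE 0.18, adjusted p = 0.0011). Both cultures were above every SSC line, but the difference fell below 1 without SSC.1 (0.87), SSC.3 (0.997) or HSC.2 (0.79). Without HSC.1, 4 members were called higher (Fzd4, Fzd8, Sfrp4 and Wnt10b). Fzd9 lost its call in 7 of the 16 fits that left out 1 library each, Lrp6 in 3 (without SSC.1, SSC.2 or HSC.1) and Fzd10 in 2 (without HSC.1 or HSC.2). The HSC cultures differed in fibroblast markers, with summed levels of 2.31 FPKM in HSC.1 and 350 FPKM in HSC.2. Dkk3 was at 0.0484 and 7.50 FPKM in them, Fzd1 at 0.129 and 3.64 FPKM and Sfrp4 at 0 and 1.98 FPKM, with HSC.2 higher in each, and the part of the markers in this was not tested.

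The single MEF library had no replicate and was not tested. It had the highest level of the 17 libraries for Dkk3 (62.8 FPKM), Fzd2 (66.4 FPKM), Dkk2 (25.3 FPKM), Wnt5a (16.3 FPKM), Fzd1 (16.1 FPKM), Wnt16 (8.78 FPKM), Fzd8 (8.27 FPKM), Wnt9a (8.07 FPKM), Wnt4 (5.03 FPKM) and Sfrp4 (4.36 FPKM). These include the receptor that led in SSC lines, Fzd2, but not the ligand Wnt5b. Wnt7b, Wnt8a, Wnt3 and Wnt3a were listed at or near 0 there. Porcn was at 9.86 FPKM, within the MASC range.

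The genes around the ligands and receptors were described from lists of other pathway components. Of 22 genes that act in ligand release or at the cell surface, 1 was higher in MASC than in SSC lines, 5 were lower and 16 were not called, where 6.04% of all transcripts were higher and 9.6% lower. The median difference was -0.66, against -0.0048 over all transcripts. Lgr4, a receptor for R-spondins, rose from 3.95, 7.55, 6.01 and 5.55 FPKM in SSC.1 to SSC.4 to 17.4 to 25.0 FPKM in MASC lines (1.69, SE 0.14, adjusted p = 2.2e-05). Rspo4, an R-spondin that enhances Wnt signals, was at 23.2, 6.54, 13.49 and 18.9 FPKM in SSC lines and at 0.0414 to 1.29 FPKM in MASC lines (-3.59, SE 0.34, adjusted p = 4.2e-05), without overlap. The other genes that fell, named after their values were seen, were Rspo1 (-1.78), Rspo2 (-1.69), Tpbg (-1.66) and Ptk7 (-1.09). Wls, the carrier of Wnt ligands, differed by -0.22 (SE 0.46, adjusted p = 0.81) and was at 132 FPKM in MEF.

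Of 21 measured intracellular components, 2 were higher in MASC lines, 6 lower and 13 not called, against the same 6.04% and 9.6% of all transcripts, and the median difference was -0.68. Ctnnb1, which encodes beta-catenin, was at 159, 74.4, 217 and 105 FPKM in SSC lines and 68.5 to 195 FPKM in MASC lines, and the difference of -0.31 (SE 0.41, adjusted p = 0.65) was within the spread of the lines. Pygo1, a nuclear cofactor of beta-catenin, fell from 6.11, 6.95, 7.04 and 4.66 FPKM in SSC lines to 0.524 to 1.10 FPKM in MASC lines (-2.04, SE 0.15, adjusted p = 8.2e-06). Tcf7, Bcl9, Tnks, Bcl9l and Pygo2 also fell (range -1.76 to -1.011). Of these, Pygo2 lost its call in 5 of the 12 fits that left out 1 line each, and Bcl9l and Tnks in 4. Bcl9l was also not called with strain as a block, and neither Bcl9l nor Tnks after quantile normalization. The DNA-binding partners Lef1 (1.81, SE 0.61, adjusted p = 0.0476) and Tcf7l1 (1.43, SE 0.43, adjusted p = 0.03) were higher, but Lef1 lost its call in 10 of these 12 fits and Tcf7l1 in 6, so that the count of higher genes went to 0 without SSC.1, SSC.3, MASC.2, MASC.5 or MASC.6 and to 1 without SSC.2, MASC.1, MASC.3, MASC.4, ESC.1 or ESC.2.

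Of 10 known target genes, 2 were higher in MASC lines, 3 lower and 5 not called, against 6.04% and 9.6% of all transcripts, and the median difference was 0.31. Axin2, an inhibitor that the pathway itself induces, was at 10.1, 5.48, 5.42 and 9.90 FPKM in SSC lines and 1.94 to 4.18 FPKM in MASC lines. No MASC line reached an SSC line, and the difference was -1.25 (SE 0.22, adjusted p = 0.0018), which was -0.98 and no longer called after quantile normalization. Nkd1, another induced inhibitor, fell by 1.65 on the log2(FPKM + 1) scale (adjusted p = 0.0015), and Nkd2 fell too (-1.52). Myc, a growth regulator under many inputs, rose (2.81, SE 0.59, adjusted p = 0.0051). Its transcript was at 0.00343 FPKM in SSC.3, where the reads were assigned to another transcript, and the sum over transcripts was 2.50 to 3.81 FPKM in SSC lines and 10.8 to 39.9 FPKM in MASC lines. The gene T, a mesoderm regulator, was also higher (1.43), but lost its call with strain as a block and without the 5 libraries of high Col1a2. With replicate number as a block, none of Axin2, Myc and T was called.

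**Figure D5:**
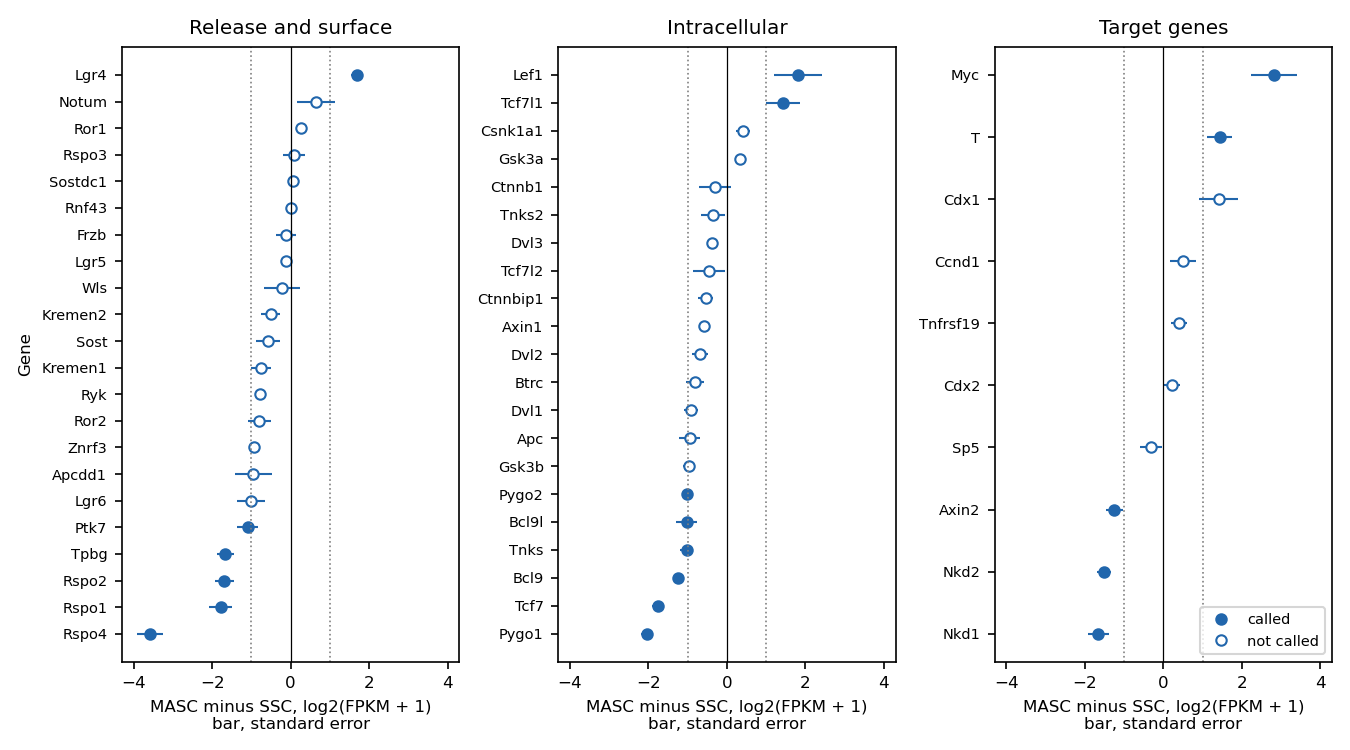
Difference in mean log2(FPKM + 1) between MASC and SSC lines for other genes of the pathway, in 3 panels for ligand release and cell surface, intracellular components and target genes, with standard errors as bars. Filled points were called. Rspo4 at -3.59 is the largest fall and Myc at 2.81 the largest rise, and Axin2, Nkd1 and Nkd2 lie left of the dotted line at -1.

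Some ligand genes lie close together, and 4 pairs were under 100000 bases apart on mm9. Wnt6 and Wnt10a on chromosome 1 were 6699 bases apart, Wnt10b and Wnt1 on chromosome 15 were 11706, Wnt3a and Wnt9a on chromosome 11 were 16178, and Wnt9b and Wnt3 on chromosome 11 were 24353. Wnt3 and Wnt9b were both lower in MASC lines (-0.83 and -0.14, adjusted p = 0.01 and 0.038) but under the minimum of 1, and Wnt9b was at no more than 0.247 FPKM in any library. Neither gene of the other pairs was called.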

How the data were processed

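The authors deposited an FPKM for each RefSeq transcript, from reads aligned to mm9 with TopHat2 2.0.11 and quantified by Cufflinks (version not given in the sources used here) with upper-quartile and GC normalization, after removal of duplicate and multiply mapped reads. They also deposited the coverage signal of each transcript, in reads per base, which was used only for depth. Cufflinks divides reads between overlapping transcripts, so transcripts of 1 gene share error. The members and gene lists were chosen with earlier results of these data known. All genes called in a comparison, and Wnt4, were described in full. Of each pathway list, the largest called change in each direction, Ctnnb1, Axin2 and Wls were described. Values were analysed as log2(FPKM + 1) with limma 3.58.1 (lmFit, eBayes without trend) in R 4.3.3, fitted on all 32661 transcripts and adjusted by Benjamini-Hochberg. SSC, MASC and ESC lines (12) were fitted together, and comparisons of iPS cells and HSCs used all 17 libraries. MEF had 1 library and was not tested. The fit was first tested on simulated data. Alternatives were a log2 difference of at least 2 (with raw p as in the study's methods, or adjusted p), a pseudocount of 0.1, a filter for 1 FPKM in 2 samples, quantile normalization, a trended and robust eBayes, sums over transcripts, a fit over all 17 libraries, blocks for replicate number and strain, each library left out in turn and, chosen after seeing the data, the removal of 5 libraries with Col1a2 above 100 FPKM.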

Additional observations from a re-analysis of the deposited data

Results flagged for a closer look

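In 7 of 82 sets of SSC or MASC values, 1 line stood far from the others, by a limit (that of Dixon's test) that about 1 in 20 sets of normally distributed values passes by chance. That rate was not measured for FPKM values, and all 7 were high values. MASC.1 accounted for 3 of them, with Sfrp1 at 30.7 FPKM (9.35 to 10.7 FPKM in the other MASC lines), Fzd1 at 5.41 FPKM (1.00 to 1.69 FPKM) and Wnt5a at 4.27 FPKM (0.626 to 1.28 FPKM). MEF held 38.1, 16.1 and 16.3 FPKM of these genes, and MASC.1 had the highest summed fibroblast markers of the MASC lines (894 FPKM). The part of those markers in the values was not tested. Wnt7a was at 0.516 FPKM in MASC.2 (0.113 to 0.200 FPKM in the other MASC lines). Among SSC lines, Wnt4 was at 0.649 FPKM in SSC.4 (0.407 to 0.444 FPKM in the others), Wnt11 at 0.454 FPKM in SSC.3 (0.0872 to 0.135 FPKM) and Dkk1 at 0.0595 FPKM in SSC.1 (0.0221 to 0.0261 FPKM).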

How the results depend on the processing

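Between MASC and SSC lines, the members called higher were 5 and those called lower 4. A log2 difference of at least 2, with raw or adjusted p, left 2 higher, a pseudocount of 0.1 gave 11 higher and 8 lower, and leaving out the libraries of high Col1a2 gave 7 lower. The release and surface list then gave 0 higher and 1 lower at a difference of 2, and 8 lower without the high Col1a2 libraries. The intracellular list gave 0 higher and 1 lower at a difference of 2, 1 higher with sums over transcripts, and 0 higher with a replicate block, a strain block or without the high Col1a2 libraries. The target list gave 1 higher and 0 lower at a difference of 2, 0 higher with a replicate block and 1 higher without the high Col1a2 libraries. For ESC against SSC lines, 1 member was higher at a difference of 2, 7 were higher with a pseudocount of 0.1, and 1 was higher without the high Col1a2 libraries. The iPS call was lost (0 lower) at a difference of 2 and without the high Col1a2 libraries. For HSC against SSC, a difference of 2 left 0 higher and 6 lower, a pseudocount of 0.1 or quantile normalization gave 2 higher, and 0 were higher without the high Col1a2 libraries. Quantile normalization also took the calls of Fzd9 (-0.99) and Lrp6 (-0.73). The call of Wnt3 was lost (-1.19) without the high Col1a2 libraries, which left 1 HSC culture and 2 SSC lines. The cause of these shifts was not tested, except that a minimum of 2 is stricter by construction.

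Leaving out 1 library at a time gave 4 to 5 members higher and 3 to 5 lower between MASC and SSC lines, 1 to 1 higher and 4 to 8 lower in the release and surface list, 0 to 2 and 4 to 8 in the intracellular list, and 2 to 3 and 3 to 3 in the target list. It gave 4 to 5 higher and 3 to 5 lower for ESC against SSC, 0 to 0 in both directions for ESC against MASC, 0 to 1 in both for iPS against MASC, and 0 to 4 higher and 7 to 10 lower for HSC against SSC. Where 1 line remained, it was assumed to vary like the other groups. Without SSC.1, the release and surface list had 8 lower genes.

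Replicate numbers recur across cell types but mark no shared origin in the labels. The deviations of same-numbered SSC and MASC lines correlated at 0.185, -0.225, -0.219 and 0.135, and no SSC line correlated best with the MASC line of its own number, so the numbers were not taken as pairs. A replicate block gave 5 members higher (Wnt6 in, Fzd7 out) and 3 lower (Fzd2 out) between MASC and SSC lines, 0 higher and 3 lower between ESC and SSC lines, and took the HSC calls of Fzd9 and Lrp6. The direction of Wnt4 between ESC and SSC lines, where it was not called, turned under that block (-0.042) and without ESC replicate 1, and was -0.031 to 0.17 over the fits without 1 library.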
